A study of Mus musculus with 8 samples.

Results

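The cytosolic ribosomal protein genes were followed in bulk RNA-seq of mouse bone marrow libraries from a Nup214 knockout and its controls. The product of Nup214 sits where the nuclear pore opens into the cytoplasm. Members were the protein-coding genes whose mouse symbol is Rpsa or begins with Rpl or Rps before a digit or p, apart from the Rps6k kinases and rows named as pseudogenes, and 86 of the 52097 genes in the table met this. Of these, 77 encode proteins of the ribosome itself, 31 in the small 40S subunit and 46 in the large 60S subunit. The other 9 are tissue paralogues and associated genes (Rpl10l, Rpl22l1, Rpl36al, Rpl39l, Rpl3l, Rpl7l1, Rps27l, Rps27rt and Rps19bp1) and are described apart. The knockout group was 3 libraries from Nup214fl/fl,Mx1-Cre mice and the control group was 5 libraries from Nup214fl/fl mice, whose floxed alleles carried no Cre. Mice of both genotypes had received pIpC, a double-stranded RNA that induces interferon, and cells in the haematopoietic stem cell gate CD48-CD150+LSK were sorted 3 days later. The Mx1 promoter answers to interferon in many cell types and is not specific to stem cells. Cre was present in the knockout group only, so Nup214 loss and Cre itself cannot be told apart.

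Every protein of the ribosome is needed in a fixed ratio to the ribosomal RNA, and the genes for these proteins are spread over the genome yet expressed at matched levels. In mammals their mRNAs begin with a 5′ terminal oligopyrimidine (TOP) tract, a run of C and U through which the kinase complex mTORC1 and the RNA-binding protein LARP1 set how much of each mRNA is kept and translated. Ribosomal proteins enter the nucleus, join pre-ribosomes in the nucleolus, and leave as subunits through the nuclear pore, where the large subunit needs the exporter CRM1 (encoded by Xpo1) and, in cultured cells, NUP214 with its partner NUP88. In humans, mutations in ribosomal protein genes, most often RPS19, cause Diamond-Blackfan anaemia, in which the red cell lineage fails in the bone marrow.

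Several facts of the whole series bear on each comparison. The expression values were FPKM (fragments scaled to transcript length and to library size), and the depth they imply was about 16300000 to 21900000 fragments in the knockout libraries and 19900000 to 42500000 fragments in the control libraries. Nup214 itself was at 17.6, 9.66 and 18.2 FPKM in the knockout libraries, against 43.2, 65.2, 48.5, 34.2 and 55.3 FPKM in the control libraries. Its log2 fold change was -1.66 ± 0.25 (SE) as deposited. Transcript thus remained in the knockout libraries, and how complete the deletion was is not known. Genes of the mitochondrial genome took 37.8 to 43.3% of summed FPKM in the knockout libraries and 5.02 to 6.66% in the control libraries, which lowers the share left for every other gene. The median log2 fold change over the 15121 genes tested was -0.81 as deposited, and after median-ratio scaling, which sets libraries level on the ratios of most genes, it was -0.13. The labelled cell type was only partly borne out by its markers in the knockout libraries. The counts below stand against 59.5% lower and 8.91% higher among all genes tested, as deposited. Of 12 stem and progenitor markers 9 were lower and 1 was higher, with summed levels of 346 to 446 FPKM in knockout libraries and 1213 to 1594 FPKM in control libraries. After median-ratio scaling 9 of these 12 were lower and 2 higher, against 21.4% lower and 16.5% higher among all genes tested. Of 12 macrophage markers 10 were higher (summed 1846 to 7466 FPKM in knockout, 436 to 596 FPKM in control), of 12 T and NK cell markers 11 were higher (1245 to 1899 FPKM in knockout, 327 to 809 FPKM in control), and of 12 stromal and endothelial markers 9 were higher and 2 lower (363 to 857 FPKM in knockout, 79.7 to 95.4 FPKM in control). No marker on these 4 lists was at 0 in every library of a group. Among the other lists, 2 of 4 B cell markers tested were lower, 3 of 7 erythroid markers were lower and 2 higher, 3 of 10 neutrophil and monocyte markers were lower and 1 higher, and 4 of 6 megakaryocyte markers were lower and 1 higher. The part of this cell makeup in the values below was not tested, and in bulk libraries fewer cells of a type and less RNA per cell cannot be told apart.

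All 77 subunit genes were lower in the knockout libraries. The 86 members together took 4.51, 4.22 and 4.79% of summed FPKM in the knockout libraries, against 17.8, 20.8, 19.4, 16.4 and 17.97% in the control libraries. With mitochondrial genes and their nuclear copies left out of the total, the shares were 10.6, 8.68 and 10.6% in the knockout libraries and 19.2, 22.9, 20.9, 17.9 and 19.7% in the control libraries. The groups were far apart on either denominator, and the distance was smaller on the second. The means were 4.51 ± 0.29% in knockout and 18.5 ± 1.698% in control libraries on all FPKM, and 9.96 ± 1.11% in knockout and 20.1 ± 1.88% in control libraries outside the mitochondrial genes (SD, n = 3 and 5).

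**Figure D1:**
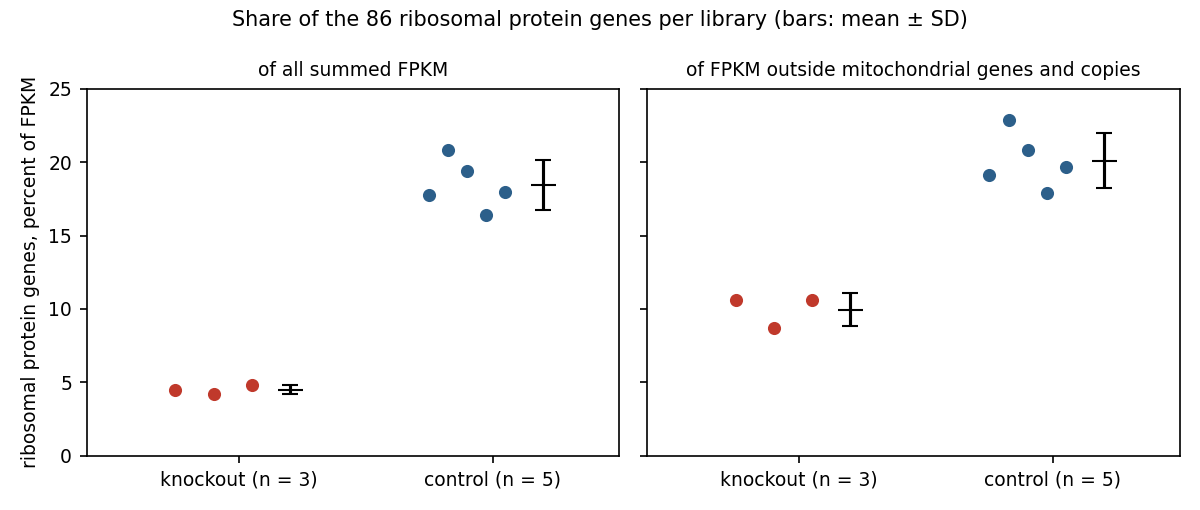
Share of the 86 ribosomal protein genes in each library, as a percent of all summed FPKM (left panel) and of FPKM outside mitochondrial genes and their nuclear copies (right panel), with points for libraries and bars for mean ± SD. The 3 knockout libraries lie between 4.22 and 4.79% on the left and between 8.68 and 10.6% on the right, below every control library in both panels.

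In the limma fit over all genes, 77 of 77 subunit genes fell at a Benjamini-Hochberg adjusted p under 0.05, in a table where 59.5% of genes tested were lower and 8.91% were higher. The largest adjusted p among them was 0.000117. For each of the 77 genes the 3 knockout values lay below all 5 control values, a pattern met by 54.5% of genes tested. The median log2 fold change of the subunit genes was -1.76, which is -0.95 relative to the median of all genes, and the median gene kept 29.3% of its control level. After median-ratio scaling the same 77 genes were still called lower, with a median of -0.92, or -0.79 relative to the median of all genes on that scale, where 21.4% of genes tested were lower and 16.5% were higher. Quantile normalization gave 77 lower and a median of -0.88, and scaling to the non-mitochondrial total gave 77 lower and a median of -0.96. Size of fall therefore depended on the scaling, and the count of genes called did not.

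**Figure D2:**
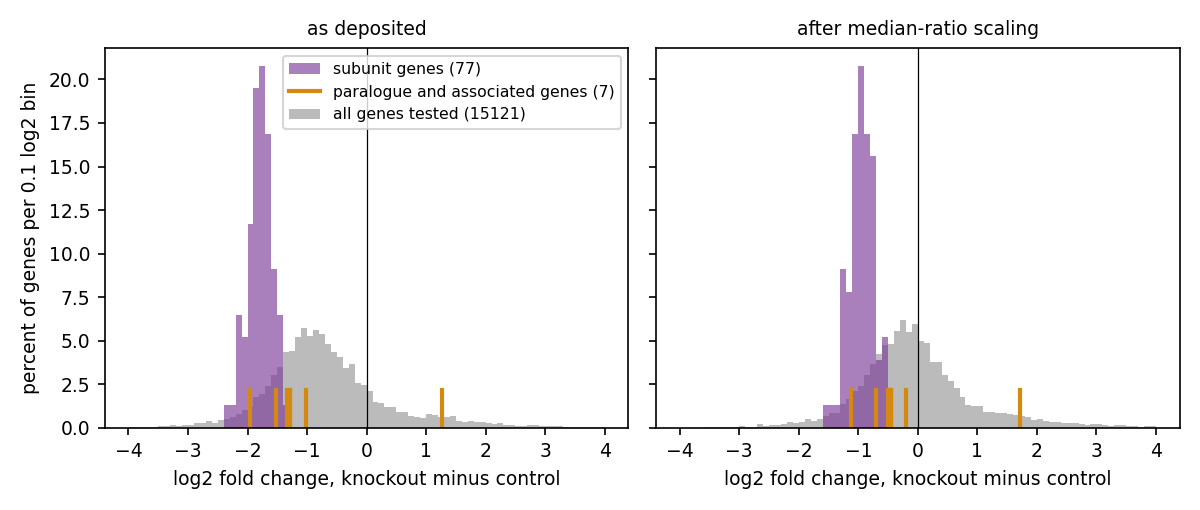
Distribution of log2 fold changes, knockout minus control, for all genes tested (grey), the 77 subunit genes (purple) and 7 paralogue and associated genes (orange ticks), as deposited (left) and after median-ratio scaling (right), in percent of genes per bin of 0.1. The subunit genes form a narrow peak at a median of -1.76 on the left and -0.92 on the right, at the lower side of the broad distribution of all genes.

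The subunit genes had similar fold changes. Their log2 fold changes ran from -2.34 to -1.39 with an SD of 0.20, against an SD of 1.08 over all genes tested, 0.17 over 14 nuclear genes of the mitochondrial ribosome and 0.16 over 7 import receptors, and 60 of the 77 lay within 0.25 of their median. The 31 genes of the 40S subunit had a median of -1.82 and the 46 genes of the 60S subunit a median of -1.74. Summed over genes, 60S FPKM was 1.23, 1.23 and 1.24 times 40S FPKM in the knockout libraries, and 1.22, 1.17, 1.18, 1.28 and 1.21 times in the control libraries. The knockout ratios lay inside the control range, so no shift between the subunits was seen at this replicate spread. Of the 15121 genes tested, 9.62% had a log2 fold change below the subunit median.

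The order of the genes by level was largely kept. Across the 77 genes, log2 mean FPKM in knockout and control libraries correlated at r = 0.97, a description of points that share the same 8 libraries. Control means differed 19.7-fold between Rps27, the highest gene, at 2323 ± 317 FPKM in knockout and 7760 ± 1679 FPKM in control libraries, and Rpl12, the lowest, at 131 ± 20.8 FPKM in knockout and 393 ± 74.9 FPKM in control libraries (SD, n = 3 and 5). Of the 10 subunit genes highest in control libraries, 9 were also among the 10 highest in knockout libraries. Those 10 held 31.6, 30.7 and 29.3% of summed subunit FPKM in the knockout libraries and 33.7, 32.2, 34.3, 30.3 and 30.5% in the control libraries. The fold change was weakly related to the control level (r = -0.33) and hardly to transcript length (r = -0.07).

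**Figure D3:**
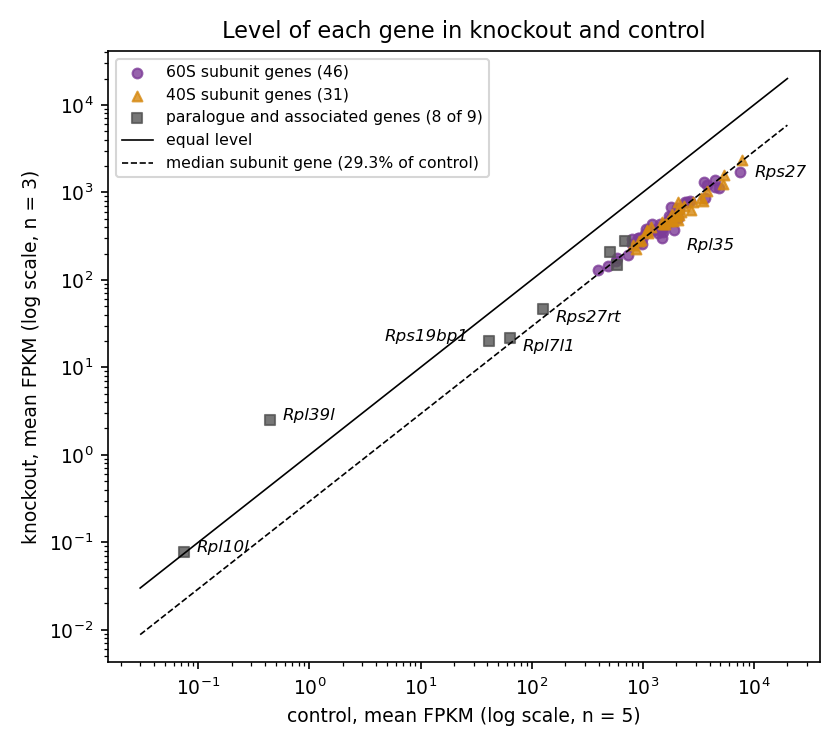
Mean FPKM of each gene in knockout libraries (vertical, n = 3) against control libraries (horizontal, n = 5), both on log scales, for 60S genes, 40S genes and 8 of the 9 paralogue and associated genes (Rpl3l, listed at 0 in every knockout library, cannot be drawn). The subunit genes follow the dashed line at 29.3% of control from Rpl12 to Rps27, and Rpl39l lies above the line of equal level.

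Very abundant genes as a class fell less. Outside the members and the mitochondrial genes, 168 genes reached at least the control mean of Rpl12, and of these 126 were lower and 6 higher with a median log2 fold change of -1.15. After median-ratio scaling the same 168 genes had 62 lower, 27 higher and a median of -0.31, against 77 lower and a median of -0.92 for the subunit genes. The fall of the subunit genes was thus larger at the median than that of other genes of such levels on both scales, with no test of that difference made here.

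Replicates of each group differed in overall level more than in proportions. The summed subunit FPKM was 45568, 40253 and 47781 in the knockout libraries and 143035, 186819, 168944, 146185 and 142407 in the control libraries. Control replicate 2 held the highest value of 62 of the 77 genes, and knockout replicate 2 held the lowest value of 61. The median coefficient of variation of a subunit gene was 10.8% among knockout and 14.8% among control libraries, and dividing by the summed subunit FPKM of each library left 6.81% among knockout and 9.43% among control libraries. Leaving out any single library kept all 77 genes called, with medians from -1.83 to -1.71.

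The 60S subunit's P stalk, a flexible arm that recruits the translation factors, is built from Rplp0, Rplp1 and Rplp2. Rplp0 (chr5:115559467-115563727, plus strand, mm10) was at 812, 703 and 883 FPKM in the knockout libraries, against 2529, 2713, 2664, 2928 and 2390 FPKM in the control libraries, a log2 fold change of -1.73 ± 0.13 (SE, adjusted p = 8.55e-06, limma). Rplp1 (chr9:61913284-61914542, minus strand) was at 1206, 1157 and 1275 FPKM in the knockout libraries, against 3587, 4405, 4154, 3561 and 3248 FPKM in the control libraries, and fell by 1.64 on the log2 scale. Rplp2 (chr7:141447370-141451585, plus strand) was at 419, 376 and 501 FPKM in the knockout libraries, against 1202, 1793, 1466, 1288 and 1320 FPKM in the control libraries, and fell by 1.704. No knockout library reached the lowest control library for any of these genes, and the stalk genes lay within 0.1 of each other on the log2 scale.

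Rpl5 and Rpl11 bind 5S ribosomal RNA, and when subunit assembly stalls the free particle binds MDM2 and so stabilizes p53. Rpl5 (chr5:107900502-107909005, plus strand) was at 171, 167 and 190 FPKM in the knockout libraries, against 488, 583, 608, 464 and 777 FPKM in the control libraries, a log2 fold change of -1.702 ± 0.18. Rpl11 (chr4:136028265-136053428, minus strand) was at 390, 411 and 450 FPKM in the knockout libraries, against 1323, 1696, 1494, 1498 and 1375 FPKM in the control libraries, a log2 fold change of -1.82 ± 0.13. The groups did not overlap for either gene, and both genes lay within 0.1 of the subunit median. All 15 subunit genes on a list of genes mutated in Diamond-Blackfan anaemia in humans fell, with a median of -1.86, as did all 77 subunit genes and 59.5% of genes tested. Rps19 (chr7:24884371-24889806, plus strand), the most often mutated of them, was at 1309, 1094 and 1308 FPKM in the knockout libraries, against 5293, 6366, 6076, 4125 and 4510 FPKM in the control libraries, a log2 fold change of -2.08 ± 0.17 (adjusted p = 1.27e-05, limma).

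Rps27 (a zinc-finger protein of the 40S subunit) and Rps29, among the most abundant of the genes, show how large the groups' separation was in absolute terms. Rps27 was at 2678, 2067 and 2225 FPKM in the knockout libraries, against 7210, 9313, 9629, 5636 and 7011 FPKM in the control libraries. For Rps29, values of 1522, 1630 and 1576 FPKM in the knockout libraries stood against 4809, 7063, 6390, 4261 and 4402 FPKM in the control libraries. Control values were widely spread for both genes, and the lowest of them was still above every knockout value.

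Small differences between the genes were examined by dividing each library by its own summed subunit FPKM, an alternative added after the data had been seen. This makes the summed subunit FPKM equal in every library, so a median of the subunit genes near 0 is built in. On that scale, where 4.29% of genes tested were lower and 50% were higher, 6 of the 77 subunit genes were lower and 5 were higher, and the remaining 66 were not called. Rpl35, a protein beside the exit tunnel of the 60S subunit, stood lowest. It was at 345, 364 and 418 FPKM in the knockout libraries, against 1819, 2058, 1956, 2028 and 1679 FPKM in the control libraries, a log2 fold change of -2.34 ± 0.13 as deposited and of -0.53 ± 0.13 relative to the summed subunit FPKM (adjusted p = 0.00569, limma). Rpl36a, an X-linked gene, was at 258, 293 and 346 FPKM in the knockout libraries, against 1295, 1941, 1542, 1225 and 1414 FPKM in the control libraries, and stood at -0.48 ± 0.14 on the relative scale (adjusted p = 0.0125, limma). Rpl10a, Rpl32 and Rps24 were also called lower, by 0.29 to 0.30. Rpl10a, a 60S protein of the L1 stalk, was at 357, 312 and 379 FPKM in the knockout libraries, against 1466, 1711, 1539, 1565 and 1317 FPKM in the control libraries. Rpl32 was at 1171, 954 and 1219 FPKM in the knockout libraries, against 4559, 5679, 5237, 4351 and 4337 FPKM in the control libraries. In each of these genes the lowest control value was more than 3 times the highest knockout value.

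At the other end, Rpl19, a 60S protein that reaches across to the small subunit, was at 680, 601 and 767 FPKM in the knockout libraries, against 1606, 1894, 1865, 2067 and 1557 FPKM in the control libraries. It fell by 1.39 as deposited and stood at 0.42 ± 0.13 relative to the summed subunit FPKM (adjusted p = 0.021, limma). Rpl13a (0.38 ± 0.12), Rpl27 (0.36 ± 0.11) and Rps10 (0.29 ± 0.11) were also called higher on this relative scale, whereas Rpl29 at 0.39 ± 0.16 was not (adjusted p = 0.0651, limma). Rpl13a was at 1405, 1144 and 1401 FPKM in the knockout libraries, against 3190, 3812, 3641, 3638 and 3526 FPKM in the control libraries. Rpl27 was at 395, 349 and 413 FPKM in the knockout libraries, against 924, 1327, 1159, 947 and 972 FPKM in the control libraries, and Rpl29 at 319, 270 and 291 FPKM in the knockout libraries, against 658, 916, 823, 998 and 618 FPKM in the control libraries. Even here every knockout value lay below the lowest control value as deposited, a pattern met by 54.5% of genes tested. These calls were unequally firm. Rpl35 was called without any 1 of the 8 libraries, Rpl36a and Rpl27 in 7 of 8 such fits, Rpl13a and Rpl19 in 6, Rpl32 and Rps24 in 2, Rps10 in 1 and Rpl10a in none. The number called lower was 3 without control replicate 1, 4 without control replicate 2, 2 without control replicate 3 or 5, 8 without control replicate 4, 2 without knockout replicate 1 or 3 and 3 without knockout replicate 2. The number called higher was 1 without control replicate 3, 3 without any knockout replicate and 4 to 6 without any other control replicate.

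**Figure D4:**
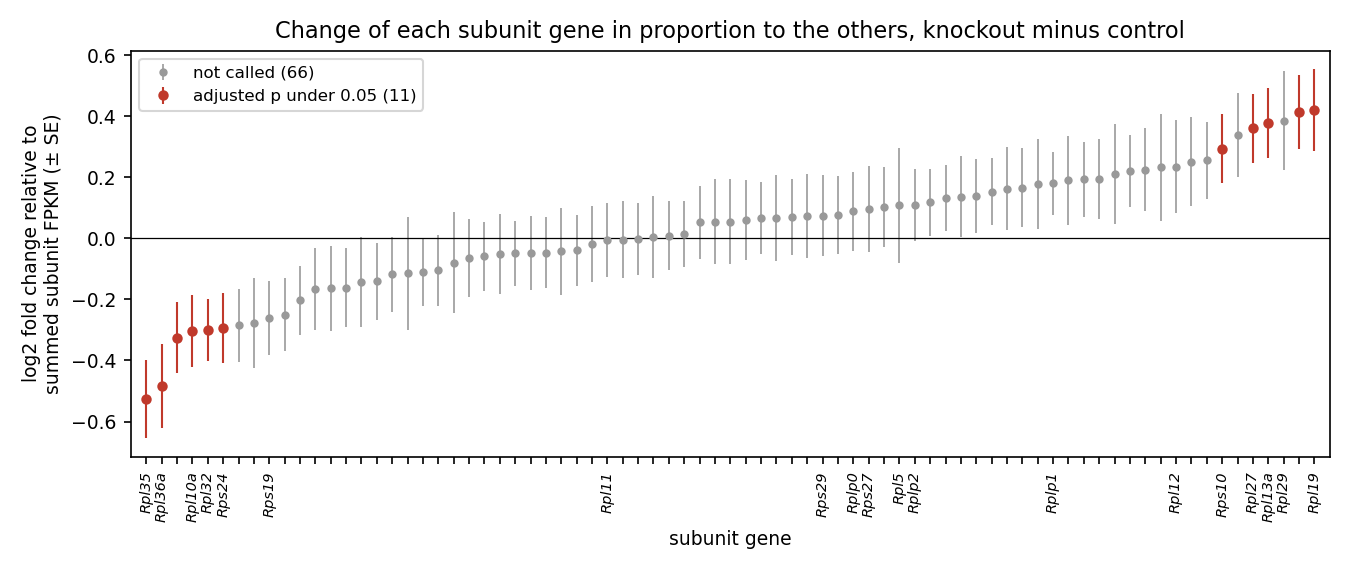
Log2 fold change of each of the 77 subunit genes, knockout minus control, after each library was divided by its summed subunit FPKM, with standard errors, genes in order of their value and names for genes given in the text. Genes with an adjusted p under 0.05 are in red. They are 6 at the lower end led by Rpl35 at -0.53 and 5 at the upper end led by Rpl19 at 0.42. Most genes lie near 0, where the scaling centres them.

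The sequence around the transcription start was read for the 57 subunit genes with a start in the RefSeq promoter table of build GRCm38.p6. The window of 40 bases from 10 before to 30 after each listed start is shown for genes with a long C or T run and for genes without one. A run that begins at the start itself is the DNA form of a TOP tract. Runs were taken anywhere in the window, so a marked run need not be such a tract. Capitals mark the longest run of at least 8 C or T.
Rpl35, chr2:39005102-39005141, minus strand: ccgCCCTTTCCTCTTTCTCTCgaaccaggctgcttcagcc
Rpl11, chr4:136053364-136053403, minus strand: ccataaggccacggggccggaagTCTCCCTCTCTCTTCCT
Rps27, chr3:90213619-90213658, minus strand: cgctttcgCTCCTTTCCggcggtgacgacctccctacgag
Rpl13a, chr7:45128716-45128755, minus strand: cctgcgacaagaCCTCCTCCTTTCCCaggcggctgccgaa
Rpl22l1, chr3:28805498-28805537, plus strand: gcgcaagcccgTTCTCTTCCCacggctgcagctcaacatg
Rpl5, chr5:107900518-107900557, plus strand: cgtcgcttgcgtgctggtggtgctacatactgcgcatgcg
Rpl27, chr11:101442235-101442274, plus strand: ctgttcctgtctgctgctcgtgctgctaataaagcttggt
Rpl36al, chr12:69184038-69184077, minus strand: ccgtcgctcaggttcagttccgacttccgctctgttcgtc
Such a run lay in 40.3% of 67 subunit promoters and in 14.4% of all 32851 promoters in the table. Rpl35, with the largest fall, has a run of 18 bases, and Rpl13a, among the smallest, has a run of 14. Subunit genes with a run in the window had a median log2 fold change of -1.76 and those without one -1.74. Over all genes tested the medians were -0.84 with a run and -0.87 without. In both sets the medians with and without a run differed by less than 0.1. A listed start may lie some bases from the start used in these cells, and a window without a run says only that these letters are not in it.

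The short motif CGGAAG, the core bound by transcription factors of the ETS family, was searched for on both strands over the 300 bases of each promoter. It lay in 62.7% of the subunit promoters and in 16.9% of all promoters. Stretches from 130 bases before to 30 after the start are shown for Rplp2, for Rpl36a with its large fall and for Rpl39l, the paralogue that was higher in the knockout libraries. Capitals mark the motif as read on the gene's own strand, where CTTCCG is its reverse complement.
Rplp2, chr7:141447521-141447680, plus strand: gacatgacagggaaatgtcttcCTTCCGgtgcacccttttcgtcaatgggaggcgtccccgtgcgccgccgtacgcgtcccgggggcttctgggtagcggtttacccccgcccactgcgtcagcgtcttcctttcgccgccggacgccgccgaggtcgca
Rpl36a, chrX:134585524-134585683, plus strand: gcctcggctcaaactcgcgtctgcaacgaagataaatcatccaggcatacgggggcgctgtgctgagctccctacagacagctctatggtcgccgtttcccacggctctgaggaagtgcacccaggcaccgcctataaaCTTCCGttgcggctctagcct
Rpl39l, chr16:10170098-10170257, plus strand: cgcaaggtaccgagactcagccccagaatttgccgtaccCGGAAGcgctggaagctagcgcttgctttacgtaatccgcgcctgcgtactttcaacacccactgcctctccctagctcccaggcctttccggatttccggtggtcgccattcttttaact
Among genes tested, the median log2 fold change was -0.94 with the motif and -0.82 without it. Among subunit genes it was -1.75 with the motif and -1.80 without it. A longer palindrome known as the CGCG element, TCTCGCGAGA, lay in 10.4% of the subunit promoters and in 0.466% of all promoters. The 6 subunit genes with it had a median log2 fold change of -1.98 and those without it -1.74, and over all genes tested the medians were -1.05 with it and -0.87 without it, differences that were not tested. The promoter of Rpl39l holds the shorter motif as those of Rpl36a and Rplp2 do, although its fold change had the other sign.

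Position gave no simple grouping, since the 77 subunit genes lie on 19 chromosomes, with 14 genes on chromosome 7 and 4 on the X chromosome. Reads from ribosomal protein genes can be shared with their many retrocopies, and this was measured as the share of 50-base stretches of each gene's transcripts that also occur in another annotated gene. The share had a median of 43.9% and ran from 0 to 86.7%, with 29 of 77 genes over 50%. It was unrelated to the fold change (r = 0.02 across the 77 genes), and genes at or under the median share and genes over it both had a median fold change of -1.76. Values of single genes with a high share, such as Rpl36a at 85.5% and Rpl19 at 79.3%, are uncertain for this reason. The 282 rows named as pseudogenes summed to 1.31, 1.17 and 1.29% of subunit FPKM in the knockout libraries and to 0.47, 1.55, 0.63, 1.04 and 1.36% in the control libraries.

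The paralogue and associated genes were less uniform. Of 9 genes, 8 passed the filter on low values, and 7 fell and 1 rose in the fit over all genes, against the 59.5% lower and 8.91% higher among all genes. Rpl39l met the filter only through the knockout libraries and Rpl3l only through the control libraries. In each case that was the group with the higher values, so the filter itself favoured these calls. After median-ratio scaling 4 were lower (Rpl22l1, Rpl36al, Rpl7l1 and Rpl3l), 1 was higher (Rpl39l) and 3 were not called. For each pair of paralogue and parent gene the log2 ratio within a library, with 1 FPKM added to each gene, was compared between groups by exact permutation (two-sided), with 56 ways to choose 3 of 8 libraries. The smallest p this allows is 0.0179, and 7 pairs were adjusted together.

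Rpl39l, known from testis as a germ-cell copy of the X-linked Rpl39, was called higher at a low level. It was at 1.38, 3.56 and 2.54 FPKM in the knockout libraries, against 0.46, 0.40, 0, 0.21 and 1.15 FPKM in the control libraries, a log2 fold change of 1.27 ± 0.30 as deposited (adjusted p = 0.00385, limma) and of 1.71 after median-ratio scaling (adjusted p = 0.0015). The filter was met only through these knockout values, so the adjusted p-values are not independent support for a rise. Every knockout value exceeded every control value, and the groups did not overlap, in either direction, for 9432 of 15121 genes tested. As a percent of Rpl39 it was 0.73, 2.08 and 1.15% in the knockout libraries and at most 0.16% in the control libraries (exact p = 0.0179, adjusted 0.0625). Rpl39 itself fell by 1.89 on the log2 scale, which raises this ratio without any change in Rpl39l. The ratio is therefore no separate evidence that Rpl39l rose. The coding sequences, from GENCODE M21, are both 156 bases long and differ at 23 bases, marked in capitals, which shows how the pair can be told apart by reads.
Rpl39l: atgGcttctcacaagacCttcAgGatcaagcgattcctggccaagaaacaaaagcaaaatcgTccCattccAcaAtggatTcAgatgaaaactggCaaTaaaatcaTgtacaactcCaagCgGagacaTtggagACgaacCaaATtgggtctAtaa
Rpl39: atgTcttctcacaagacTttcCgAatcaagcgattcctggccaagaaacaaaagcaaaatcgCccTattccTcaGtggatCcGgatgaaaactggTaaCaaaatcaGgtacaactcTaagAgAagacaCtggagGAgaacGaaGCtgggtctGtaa
No 50-base stretch of Rpl39l occurred in another annotated gene.

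Rpl36al, the autosomal copy of Rpl36a on chromosome 12, had a smaller listed fall than its parent. It was at 276, 267 and 290 FPKM in the knockout libraries, against 535, 850, 681, 751 and 627 FPKM in the control libraries, a log2 fold change of -1.29 ± 0.16 (adjusted p = 9.19e-05, limma). Relative to Rpl36a it was at 107, 90.9 and 83.8% in the knockout libraries, against 41.3, 43.8, 44.2, 61.3 and 44.3% in the control libraries. The groups did not overlap, the difference in log2 ratio was 1.01, and the exact p of 0.0179 became 0.0625 after adjustment over 7 pairs. Of the 321 coding bases 39 differ, and the first 150 bases, with 23 of these differences in capitals, are shown to mark what separates the copies.
Rpl36al: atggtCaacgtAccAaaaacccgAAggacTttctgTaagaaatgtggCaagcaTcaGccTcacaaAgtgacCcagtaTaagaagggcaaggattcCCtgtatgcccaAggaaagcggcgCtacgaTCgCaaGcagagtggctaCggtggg
Rpl36a: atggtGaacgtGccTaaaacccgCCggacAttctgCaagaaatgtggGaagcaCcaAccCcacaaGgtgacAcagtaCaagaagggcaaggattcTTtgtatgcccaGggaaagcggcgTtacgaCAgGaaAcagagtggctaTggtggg
Rpl36al shared 24.9% of its 50-base stretches with another gene. Its parent Rpl36a shared 85.5%, so the level of Rpl36a and the ratio to it are uncertain.

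Rps27l, a copy of Rps27 that p53 induces, was at 166, 236 and 216 FPKM in the knockout libraries, against 378, 650, 535, 564 and 421 FPKM in the control libraries. Its log2 fold change was -1.29 ± 0.20 as deposited (adjusted p = 0.000351, limma) and -0.45 after median-ratio scaling (adjusted p = 0.0921). As a percent of Rps27 it was 6.19, 11.4 and 9.72% in the knockout libraries and 5.24, 6.98, 5.55, 9.999 and 6.01% in the control libraries, which overlap (exact p = 0.196, adjusted 0.229). The full coding sequences of the pair, 255 bases each, differ at 61 bases in capitals.
Rps27l: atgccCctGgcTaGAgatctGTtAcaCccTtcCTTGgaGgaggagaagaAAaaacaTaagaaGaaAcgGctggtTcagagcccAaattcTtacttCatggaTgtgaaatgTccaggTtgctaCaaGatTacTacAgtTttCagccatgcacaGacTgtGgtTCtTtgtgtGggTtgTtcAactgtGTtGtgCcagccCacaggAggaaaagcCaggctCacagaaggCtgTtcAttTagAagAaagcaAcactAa
Rps27: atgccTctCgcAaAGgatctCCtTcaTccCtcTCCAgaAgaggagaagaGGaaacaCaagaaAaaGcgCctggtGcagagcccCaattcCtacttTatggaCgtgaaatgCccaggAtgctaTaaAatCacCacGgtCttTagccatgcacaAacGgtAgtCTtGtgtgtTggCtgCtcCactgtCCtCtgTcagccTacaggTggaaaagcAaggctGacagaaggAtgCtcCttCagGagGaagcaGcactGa
Rps27rt, a retrogene on chromosome 9, has a coding sequence identical to that of Rps27, with 0 of 255 bases differing, so reads within it cannot be told apart. Rps27rt was listed at 45.2, 37.9 and 54.7 FPKM in the knockout libraries, against 72.1, 212, 109, 72.8 and 172 FPKM in the control libraries. It was called lower as deposited (-1.33 ± 0.36, adjusted p = 0.00922, limma) and not after median-ratio scaling (-0.51, adjusted p = 0.294), and its values in control replicates 2 and 5 were high together with those of named pseudogenes such as Rps6-ps4 (281 and 186 FPKM there, against 56.4 to 84.7 FPKM in the other control libraries).

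Rpl22l1, which can take the place of Rpl22 in the 60S subunit, fell with it. It was at 149, 151 and 143 FPKM in the knockout libraries, against 451, 780, 612, 533 and 537 FPKM in the control libraries, a log2 fold change of -1.95 ± 0.17. As a percent of Rpl22 it was 91.7, 98.9 and 82.8% in the knockout libraries and 97.0, 102, 108, 101 and 94.5% in the control libraries (difference in log2 ratio -0.14, exact p = 0.0714, adjusted 0.167). Without knockout replicate 2 the difference was -0.20 (exact p = 0.0476, not adjusted), and without knockout replicate 3 it was -0.077 (exact p = 0.286). With any other library left out the exact p was 0.0857 to 0.143. Rpl7l1, related in sequence to Rpl7, was at 21.8, 19.3 and 23.0 FPKM in the knockout libraries, against 64.5, 58.2, 55.7, 65.8 and 73.7 FPKM in the control libraries, and its percent of Rpl7 averaged 5.59 ± 0.26% in knockout and 5.67 ± 0.84% in control libraries. Rps19bp1, a nucleolar protein that binds Rps19, was at 19.2, 18.7 and 22.02 FPKM in the knockout libraries, against 44.0, 46.1, 41.5, 41.7 and 34.1 FPKM in the control libraries, and its fall by 1.01 was no longer called after median-ratio scaling (-0.20, adjusted p = 0.289, limma).

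Rpl3l, known as the heart and skeletal muscle copy of Rpl3, was listed at 0 in all 3 knockout libraries, against 2.45, 1.47, 2.1, 0.89 and 2.28 FPKM in the control libraries. It was called lower, and no fold is given against values listed at 0. Rpl10l, known from testis as the copy of the X-linked Rpl10, was at 0.23, 0 and 0 FPKM in the knockout libraries and at no more than 0.14 FPKM in any control library, and it was not tested. Rps4l, a transcribed pseudogene in the annotation and so no member, stood at 2.41 ± 1.05% of Rps4x in knockout and 1.71 ± 0.62% in control libraries (exact p = 0.161, adjusted 0.225).

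**Figure D5:**
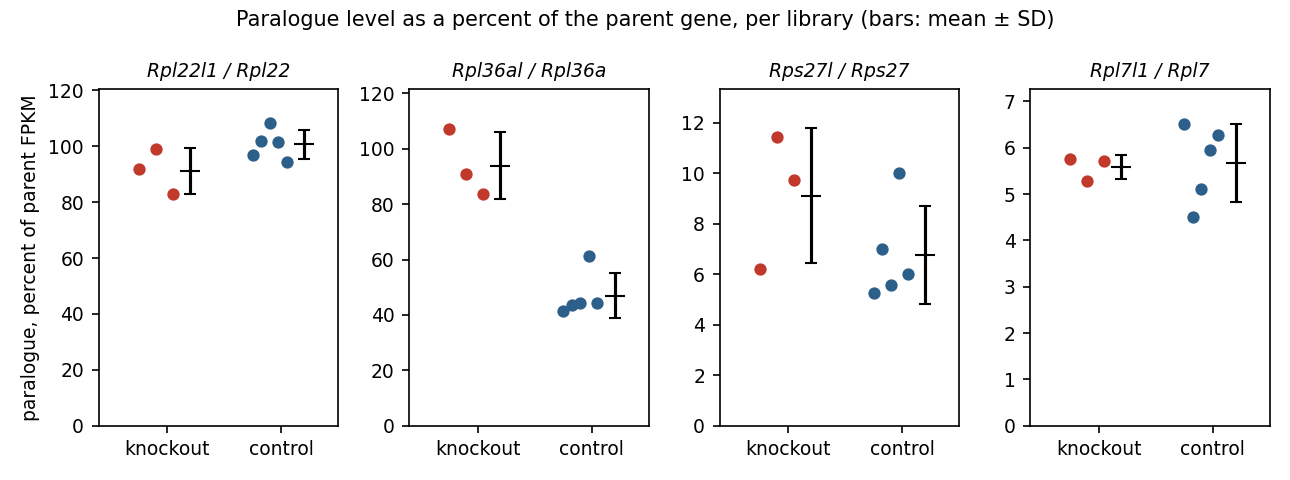
Paralogue level as a percent of the parent gene in each library for 4 pairs, with points for libraries and bars for mean ± SD (knockout n = 3, control n = 5). For Rpl36al the knockout libraries lie at 83.8 to 107%, above the control libraries at 41.3 to 61.3%, whereas the groups overlap for Rpl22l1, Rps27l and Rpl7l1.

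Genes that work with the ribosomal proteins were counted in the same fit, against 59.5% lower among all genes as deposited and 21.4% after median-ratio scaling. Of 3 listed ribosomal protein genes whose symbols fall outside the naming rule, Fau and Rack1 among them, all fell, with a median of -1.44 and 3 lower after median-ratio scaling as well. Fau, which encodes a ubiquitin-like protein fused to a 40S protein, was at 1312 ± 109 FPKM in knockout and 3579 ± 434 FPKM in control libraries (SD, n = 3 and 5). Rack1, a scaffold protein on the head of the 40S subunit, was at 195 ± 19.7 FPKM in knockout and 501 ± 52.2 FPKM in control libraries.

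Other mRNAs known to carry a TOP tract, mostly of translation factors, were lower in 16 of 16 cases with a median of -1.55, and in 13 of 16 after median-ratio scaling. Eef1g, a subunit of the elongation factor that reloads eEF1A, was at 146 ± 17.2 FPKM in knockout and 507 ± 38.5 FPKM in control libraries, a log2 fold change of -1.79 ± 0.13, close to the subunit median. Hnrnpa1, an RNA-binding splicing factor, fell further, by 2.26. Relative to the summed subunit FPKM 6 of the 16 were higher, 1 was lower and 9 were not called, on a scale where 50% of all genes tested were higher and 4.29% lower. Tpt1, picked here after its values were seen, was highest on that scale at 1.07 ± 0.15 (adjusted p = 0.000235, limma).

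Of 13 genes of mTORC1 and its control of TOP mRNAs, 12 fell as deposited with a median of -0.99, and 3 did so after median-ratio scaling. Akt1s1, an inhibitory subunit of mTORC1, was at 13.3 ± 1.93 FPKM in knockout and 47.7 ± 7.49 FPKM in control libraries. Mlst8, a core subunit, was at 5.21 ± 0.47 FPKM in knockout and 14.9 ± 1.67 FPKM in control libraries. Larp1 was at 1.40 ± 0.61 FPKM in knockout and 4.97 ± 0.53 FPKM in control libraries, and is named after its values were seen because it binds the TOP tract itself.

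Of 21 genes for subunit assembly and export, 18 fell with a median of -1.05, and 6 were lower and 1 was higher after median-ratio scaling. Rsl24d1, a 60S assembly factor, was at 19.0 ± 3.44 FPKM in knockout and 64.97 ± 2.71 FPKM in control libraries. Pa2g4, which binds the 60S subunit at the exit tunnel, was at 27.2 ± 2.53 FPKM in knockout and 104 ± 16.7 FPKM in control libraries. Xpo1, the exporter of the large subunit, was the gene that was higher after scaling. It was at 14.0, 16.6 and 20.5 FPKM in the knockout libraries, against 13.9, 17.2, 14.1, 21.2 and 18.4 FPKM in the control libraries, which overlap, with a log2 fold change of 0.01 ± 0.19 as deposited (adjusted p = 0.972, limma) and of 0.80 ± 0.18 after median-ratio scaling (adjusted p = 0.00686, limma).

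All 7 import receptors for ribosomal proteins fell as deposited with a median of -1.17, among them Ipo5 (-1.39 ± 0.16) and Tnpo1 (-1.04 ± 0.14), and 1 of the 7 did so after median-ratio scaling. Of 14 genes for the mitochondrial ribosome, which are encoded in the nucleus and carry no part of the cytosolic ribosome, 14 fell with a median of -1.28, and 7 did so after median-ratio scaling, Mrpl3 (-0.49 ± 0.14) and Mrpl37 (-0.53 ± 0.15) among them. On both scales the median of each of these lists was less negative than that of the subunit genes, and the difference between lists was not tested.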

How the data were processed

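Each library was amplified from sorted cells by the Geo-seq method and made with a TruePrep kit, per the labels' protocols. The authors deposited 1 table of FPKM per gene for all 8 libraries. Bowtie 0.12.9, Cufflinks 2.1.1, HTSeq, DESeq2 and build mm10 are named without roles, per the submitters' processing notes. All 52097 gene identifiers matched GENCODE M21.

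Genes with at least 1 FPKM in at least 3 libraries (15121) were fitted as log2(FPKM + 1) with limma 3.58.1 in R 4.3.3 (trend, robust), knockout against control, Benjamini-Hochberg over all of them, threshold 0.05. Fold changes on this scale understate the change of low genes. The fit was tested on simulated data in which few genes changed, equally up and down. Those data lack the broad fall seen here, so they cannot show how the calls hold in it. Alternatives were median-ratio, quantile and non-mitochondrial scaling, a pseudocount of 0.1, no filter, a minimum of 5 FPKM, each library left out, and the replicate number as a block. BLAST+ 2.17.0 found 11 nuclear pseudogenes that copy mitochondrial genes, at 90% identity over 50% of their length. Depth was estimated from the steps of low FPKM values, of which 74.3 to 86.7% were whole fragments within 0.15.

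Members and gene lists were chosen with earlier results of these data known. Values per library are given for the P stalk and 5S genes, all paralogues, Rps19, the 3 highest subunit genes, and the subunit genes with the 5 largest and 5 smallest falls. From each related list the genes with the 2 smallest p are named, and any called in the rarer direction. A few genes that this rule names are not reported here. The labels do not say that libraries of a group came from separate animals, so the spread behind each p-value may be technical. The table holds no counts, so intervals for counting error are not given.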

Additional observations from a re-analysis of the deposited data

Results flagged for a closer look

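Of 98 sets of 5 control values searched (each member, the shares and sums over members, and each paralogue ratio), 2 had a library far from the other 4 by Dixon's criterion, which chance alone passes in about 1 of 20 sets. Rpl17, a 60S gene, was at 958.3 FPKM in control replicate 2, against 719.7 to 788.6 FPKM in the other control libraries. Rpl36al stood at a log2 ratio to Rpl36a of -0.70 in control replicate 4 (61.3% of its parent), against 41.3 to 44.3% in the other control libraries, and the knockout libraries at 83.8 to 107% lay above that value too. Without control replicate 4 the difference in log2 ratio was 1.11, against 1.01 with it.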

How the results depend on the processing

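All 77 subunit genes stayed lower, and none higher, as deposited and with median-ratio, quantile and non-mitochondrial scaling, the other pseudocount and filters, each library left out, and the replicate block. Their median of -1.76 became -0.92 with median-ratio scaling, -0.88 with quantile normalization and -0.96 with scaling to the non-mitochondrial total, and lay between -1.83 and -1.71 with 1 library left out. Same-numbered libraries of the groups did not deviate together (correlations -0.035, 0.028 and -0.043), and none of the 3 knockout libraries correlated best with its own number. With so few libraries this cannot exclude a shared litter or day, and the labels do not say whether equal numbers mark one. The replicate block on the 6 libraries numbered 1 to 3 gave 7641 genes lower and 1241 higher, against 7919 and 1250 in those libraries with no block, and a subunit median of -1.84 in both. For the paralogue and associated genes, 4 were lower with median-ratio scaling, and 0 were higher with a minimum of 5 FPKM, which Rpl39l did not meet. Relative to the summed subunit FPKM, leaving out 1 library gave 2 to 8 genes lower and 1 to 6 higher. The knockout share of all FPKM became 9.96% outside mitochondrial genes. The Rpl22l1 to Rpl22 difference ran from -0.20 to -0.077 with 1 library left out. The Rpl7l1 to Rpl7 difference of 0.033 was -0.0040 with a pseudocount of 0.1 and ran from -0.046 to 0.086 with 1 library left out. The Rpl3l ratio, with knockout values listed at 0, was 0.51 with a pseudocount of 1 and -2.21 with 0.1, so its sign is set by the pseudocount. Of single genes, Rps27l was no longer called with median-ratio scaling, nor Rps27rt and Rps19bp1 with any of the 3 rescalings. Depth limits Rpl39l, Rpl3l and Rpl10l most, at under 4 FPKM in every library.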
